A study of Mus musculus with 11 samples.

Results

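Oligodendrocyte precursor cells and the cells that form from them were examined through 10 genes in the cerebral cortex of 5xFAD mice with and without Abi3. The genes were taken by name, as genes known in this lineage. They are Pdgfra, Cspg4, Vcan and Tnr, made by precursors, the transcription factors Olig1, Olig2 and Sox10, and Gpr17, Bcas1 and Enpp6, which mark cells that have begun to differentiate. All 10 were found among the 53700 gene identifiers of the count tables.

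Cortex was taken from female mice at 8 months of age, 6 with both copies of Abi3 (Abi3 WT) and 5 with Abi3 deleted (Abi3 KO). Every animal carried the 5xFAD transgenes, human genes with familial Alzheimer's disease mutations under the Thy1 promoter, which is active in neurons, and there was no group without them. The Abi3 allele was a constitutive null, so no cell type was singled out by the deletion. The labels give the strain as C57BL/6, whereas the study's methods describe 5xFAD mice on a B6SJL background crossed with a C57BL/6N null line, and all animals carried 1 copy of a natural Trem2 variant from SJL. RNA was measured by QuantSeq, which reads the 3′ end of each polyadenylated transcript, so that 1 transcript gives about 1 read whatever its length.

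Oligodendrocyte precursor cells are spread through the adult cortex, divide slowly, and are the source of new myelinating cells. They carry the receptor for platelet-derived growth factor and a coat of chondroitin sulfate proteoglycans, and they lose both when they leave the cell cycle. The cells then pass through a short stage in which GPR17, BCAS1 and ENPP6 are made, before the genes of compact myelin are switched on. OLIG2 and SOX10 act through the whole lineage. Abi3 encodes an adaptor of the WAVE complex, which steers actin assembly, and in brain it is made mainly by microglia.

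The libraries held 3202310 to 5501958 reads in genes, so that 3 counts, taken as the smallest amount told apart from none, equalled 0.545 to 0.937 CPM, that is, counts scaled to the sum of each library, with counting error alone in view. Raw Abi3 counts were 10 to 38 in the Abi3 WT animals and 0 to 2 in the Abi3 KO animals, 4 of which had none. For every 100 reads in genes, the Abi3 WT libraries had 65.9 ± 3.67 (SD, n = 6) reads aligned outside genes and the Abi3 KO libraries 54.0 ± 4.99 (SD, n = 5) (exact permutation test, two-sided, p = 0.00649, adjusted over 3 library measures p = 0.0195). The number of genes with a count was also lower in Abi3 KO, 17785 ± 243 (SD, n = 5) against 18445 ± 345 (SD, n = 6; exact permutation p = 0.0130, adjusted p = 0.0195). The third measure, reads in genes, was 4213426 ± 958976 (SD, n = 6) in Abi3 WT. In Abi3 KO it was 3457200 ± 301866 (SD, n = 5; exact permutation p = 0.152, adjusted p = 0.152). The part of depth in the number of genes with a count was not tested. Reads outside genes and the number of genes with a count moved with genotype. Reads outside genes were held as a covariate in an alternative fit. The part of the number of genes with a count in the values below was not tested. Neuronal markers summed to 21410 to 24488 normalized counts in Abi3 WT and 23169 to 25972 in Abi3 KO. In bulk tissue, fewer cells of a type and less RNA per cell cannot be told apart.

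No difference between genotypes was detected for any of the 10 lineage genes. None passed an adjusted p of 0.05 in DESeq2, against 95 of 17626 genes tested (0.539%), and 0 passed in edgeR (0.21% of all genes), in limma (0.113%) or with DESeq2's independent filtering off (0.323%). With DESeq2's filtering on, 6487 of the genes tested had an adjusted p. Of the 10 lineage genes, 4 had none and could not pass. None of the 10 had an unadjusted p below 0.05, against 8.58% of all genes. For none of the 10 were the genotypes free of overlap, against 1.04% of all genes. Their log2 fold changes (Abi3 KO against Abi3 WT) had a median of 0.14 and were above 0 for 7 of 10, where all genes tested had a median of -0.0033 and 49.5% above 0. The median was 0.09 without Abi3 KO replicate 2, and 0.04, with 5 of 10 above 0, with reads outside genes as a covariate. The plot of normalized counts by animal shows each gene.

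**Figure D1:**
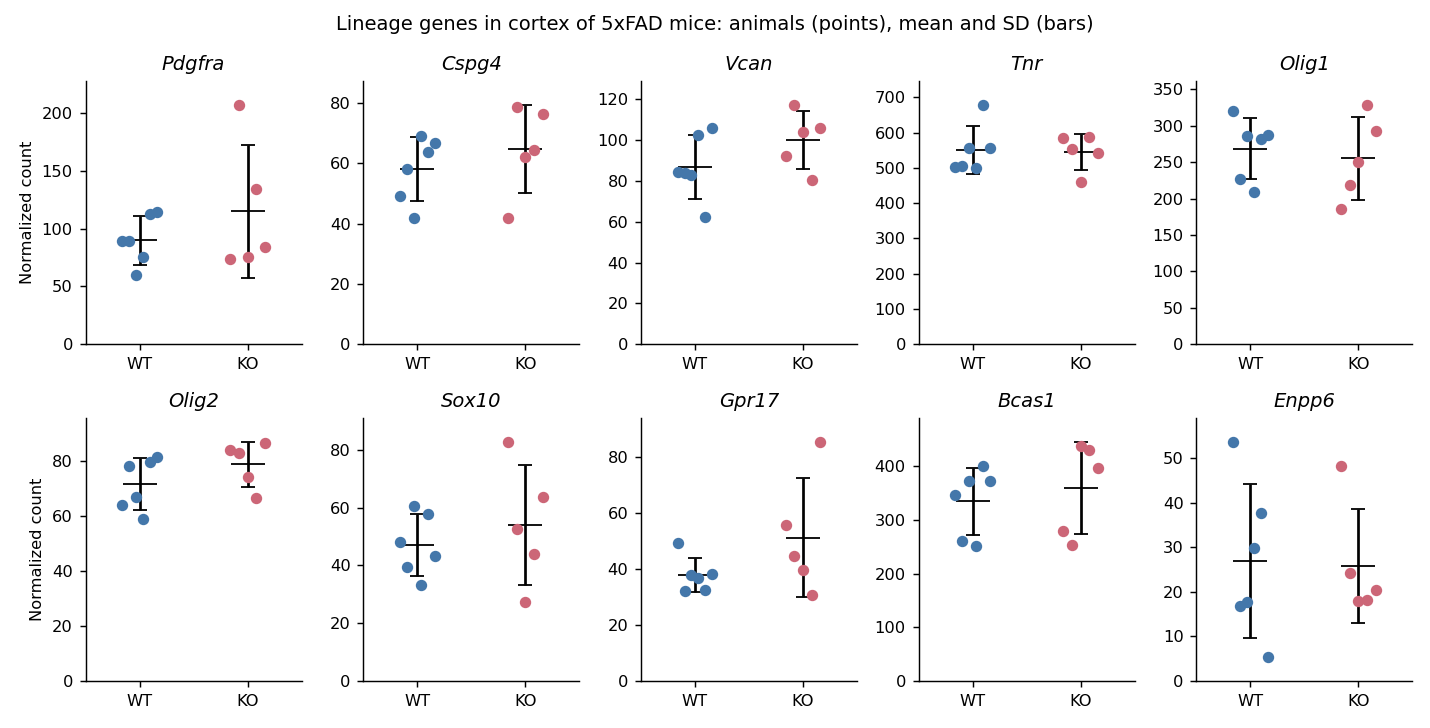
Normalized counts (vertical axes, reads scaled by DESeq2 size factors) of the 10 lineage genes in 6 Abi3 WT and 5 Abi3 KO cortices; each point is 1 animal, and bars give the mean and SD. The groups overlap in every panel, and single Abi3 KO animals stand high for Pdgfra (207) and Gpr17 (85.3).

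Pdgfra encodes the receptor through which platelet-derived growth factor keeps precursors dividing. It lies on the plus strand of chromosome 5 from 75311994 to 75358876 in GRCm39 (ENSMUSG00000029231, 23 exons). Its normalized counts in the Abi3 WT animals had a lowest value of 59.6, a median of 89.0 and a highest value of 114. In the Abi3 KO animals they were 73.4, 207, 75.2, 134 and 84.2. Of the 5, 3 lay within the lower part of the Abi3 WT range, and replicates 2 and 4 lay above it. The log2 fold change was 0.35 (SE 0.253, 95% interval -0.14 to 0.85, DESeq2 adjusted p = 0.608), and the exact permutation test on the counts gave p = 0.400. Without Abi3 KO replicate 2 the log2 fold change was 0.02, so that the size of the difference rested on 1 animal.

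Fibroblasts of the meninges and vessels also make Pdgfra. Abi3 KO replicate 2 had the highest summed count of fibroblast markers of the 11 animals, 409, where the other Abi3 KO animals had 179 to 304. Abi3 WT replicate 1 had a fibroblast sum of 402 with a Pdgfra count of 89.0. The ranges of this sum were 140 to 402 in Abi3 WT and 179 to 409 in Abi3 KO, with 7 of the 8 markers tested, 0 called and none at 0. Their part in the Pdgfra counts was not tested.

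Cspg4 encodes the core protein of NG2, the proteoglycan by which precursors are usually stained. It lies on the plus strand of chromosome 9 from 56772317 to 56807187 (ENSMUSG00000032911, 10 exons). Counts in Abi3 WT ran from 41.8 to 69.0 with a median of 61.0, and in Abi3 KO they were 41.9, 78.8, 62.1, 64.4 and 76.2. The lowest values of both genotypes were nearly equal, and replicates 2 and 5 of Abi3 KO exceeded all Abi3 WT animals. The log2 fold change of 0.15 (SE 0.219, interval -0.28 to 0.58) had no DESeq2 adjusted p because the mean count was under the 70.4 below which the tool's independent filter gave none, and the exact permutation test gave p = 0.392. Pericytes also make Cspg4, and the 8 pericyte markers summed to 475 to 686 in Abi3 WT and 479 to 598 in Abi3 KO, with 0 called and none at 0.

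Vcan encodes versican, a chondroitin sulfate proteoglycan of the matrix around precursors. It is on the minus strand of chromosome 13 from 89803431 to 89890814 (ENSMUSG00000021614, 15 exons). Abi3 WT counts spanned 62.3 to 106 around a median of 84.1, and the Abi3 KO animals had 92.3, 117, 104, 80.2 and 106. Abi3 KO replicate 2 exceeded the Abi3 WT range, replicate 5 matched its highest value, and the other 3 were inside it. The log2 fold change was 0.21 (SE 0.179, interval -0.14 to 0.56, DESeq2 adjusted p = 0.693), with an exact permutation p of 0.195.

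Tnr encodes tenascin-R, a matrix glycoprotein of precursors, oligodendrocytes and some interneurons, which binds lecticans in perineuronal nets. It spans chromosome 1 from 159351339 to 159759299 on the plus strand (ENSMUSG00000015829, 23 exons). Abi3 WT counts were lowest at 501, had a median of 531 and were highest at 679, and Abi3 KO counts were 585, 552, 459.6, 587 and 542. Only Abi3 KO replicate 3 lay outside the Abi3 WT range, below it. This was the tightest estimate of the 10, with a log2 fold change of -0.01 (SE 0.0980, interval -0.21 to 0.18, DESeq2 adjusted p = 0.974, exact permutation p = 0.874).

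Olig2, Olig1 and Sox10 encode the transcription factors of the lineage. OLIG2 is needed to specify the lineage, OLIG1, its relative, acts mainly as cells mature, and SOX10 drives myelin genes. Olig1 (ENSMUSG00000046160, 1 exon) and Olig2 (ENSMUSG00000039830, 2 exons) are neighbours on the plus strand of chromosome 16, from 91066660 to 91068821 and from 91019435 to 91025567, and their canonical starts are 44362 bases apart. Sox10 is on the minus strand of chromosome 15 from 79039108 to 79049469 (ENSMUSG00000033006, 4 exons).

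Because Olig1 and Olig2 are neighbours, and because Olig1 and Bcas1 had the highest correlation coefficient of the pairs tested, although none passed, the bases just before the starts of these 3 genes are shown. The windows cover the 250 bases before each canonical GENCODE start in GRCm39, on the strand of the gene. They are chr16:91066410-91066659 (+) for Olig1, chr16:91022048-91022297 (+) for Olig2 and chr2:170269766-170270015 (-) for Bcas1. Capitals mark CCAAT, the box bound by NF-Y, read on either strand (CCAAT or ATTGG).
Olig1: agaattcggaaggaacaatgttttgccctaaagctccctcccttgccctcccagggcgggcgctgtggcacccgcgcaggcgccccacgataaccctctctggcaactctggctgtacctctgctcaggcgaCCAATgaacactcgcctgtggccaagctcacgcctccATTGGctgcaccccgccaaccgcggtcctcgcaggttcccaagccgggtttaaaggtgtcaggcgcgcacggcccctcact
Olig2: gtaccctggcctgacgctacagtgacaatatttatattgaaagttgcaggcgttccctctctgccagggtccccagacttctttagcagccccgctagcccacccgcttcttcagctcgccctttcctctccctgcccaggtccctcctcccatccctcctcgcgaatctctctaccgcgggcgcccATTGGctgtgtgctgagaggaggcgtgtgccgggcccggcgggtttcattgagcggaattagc
Bcas1: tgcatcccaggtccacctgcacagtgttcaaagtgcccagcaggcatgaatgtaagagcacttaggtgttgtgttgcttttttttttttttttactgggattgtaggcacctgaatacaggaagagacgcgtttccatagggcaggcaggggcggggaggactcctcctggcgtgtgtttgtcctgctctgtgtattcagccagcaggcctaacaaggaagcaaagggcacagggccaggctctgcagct
The Olig1 window held CCAAT with its first base at -118 and at -81 from the start, and the Olig2 window held it at -63. The longest run of letters common to both, ccattggctg, covers the second of these in Olig1 and the one in Olig2. The Bcas1 window held none. CCAAT was present in 2 of the 10 lineage genes and in 36.5% of 21757 windows of protein-coding genes, so its presence did not set these genes apart. CAGCTG, an E-box, was in 0 of 10 windows (11.9% of all) and ACAAAG, a SOX-type motif, in 1 of 10, that of Tnr at -220 (15.9% of all). These motifs were read on both strands and were chosen after expression values had been seen. Letters alone do not show binding.

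Olig1 counts in Abi3 WT ran from 209.6 to 321 with a median of 284, and in Abi3 KO they were 186, 218, 251, 329 and 292. The Abi3 KO values lay on both sides of the Abi3 WT range, with replicate 1 below it and replicate 4 above. DESeq2 gave a log2 fold change of -0.07 (SE 0.147, interval -0.36 to 0.22, DESeq2 adjusted p = 0.901, exact permutation p = 0.649).

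Olig2 counts in Abi3 WT were 58.8 at the lowest, 72.6 at the median and 81.5 at the highest. The Abi3 KO animals had 83.9, 82.8, 74.0, 66.6 and 86.5, of which 3 were slightly above the Abi3 WT maximum. The log2 fold change of 0.14 (SE 0.180, interval -0.22 to 0.49) had a DESeq2 adjusted p of 0.820 and an exact permutation p of 0.212.

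Sox10 counts ran from 33.2 to 60.7 in Abi3 WT with a median of 45.7, and were 82.8, 52.5, 27.5, 44.0 and 63.7 in Abi3 KO. The highest and the lowest of the 11 animals were both Abi3 KO, replicates 1 and 3. This gave a log2 fold change of 0.21 (SE 0.270, interval -0.32 to 0.74), without a DESeq2 adjusted p at this mean count, and the exact permutation p was 0.498. It was 0.0013 without Abi3 KO replicate 1.

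Gpr17 encodes an orphan G protein-coupled receptor of committed precursors that must be switched off before myelination. It is on the minus strand of chromosome 18 from 32076050 to 32082888 (ENSMUSG00000052229, 2 exons), overlapped by Lims2 on the other strand, from which the stranded counting kept it apart. Abi3 WT counts ran from 32.1 to 49.1 with a median of 37.1, and Abi3 KO counts were 55.6, 44.4, 39.4, 30.5 and 85.3. Replicates 1 and 5 of Abi3 KO lay above every Abi3 WT animal and replicate 4 lay below every one. Of the 10 genes, Gpr17 had the highest log2 fold change, 0.45 (SE 0.272, interval -0.09 to 0.98), with an unadjusted DESeq2 p of 0.101, no adjusted p, and an exact permutation p of 0.152.

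The Gpr17 difference turned on which Abi3 KO animals were counted. Without replicate 5 the log2 fold change was 0.19. Without replicate 4 it was 0.59, with an unadjusted DESeq2 p of 0.0326 and an exact permutation p of 0.0286. Replicate 4 also had the most reads outside genes of the Abi3 KO libraries, 62.5 per 100 reads in genes, within the Abi3 WT range of 59.3 to 68.8. With that library measure as a covariate the log2 fold change was -0.05 (SE 0.507). The measure differed between genotypes, so its part in the Gpr17 counts cannot be told apart from that of genotype.

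Bcas1 encodes a protein of early myelinating cells, and its immunostaining marks oligodendrocytes that are forming myelin, although mature cells also make its RNA. It is on the minus strand of chromosome 2 from 170188911 to 170269765 (ENSMUSG00000013523, 13 exons). Abi3 WT counts had a minimum of 251, a median of 359.7 and a maximum of 401, and Abi3 KO counts were 280.0, 254, 437, 430.3 and 396. Replicates 3 and 4 of Abi3 KO were above the Abi3 WT range. Bcas1 had a log2 fold change of 0.10 (SE 0.155, interval -0.20 to 0.41, DESeq2 adjusted p = 0.851, exact permutation p = 0.587).

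Enpp6 encodes a choline-specific phosphodiesterase used as a marker of newly formed oligodendrocytes. It is on the plus strand of chromosome 8 from 47439919 to 47549797 (ENSMUSG00000038173, 8 exons). Counts were 5.29 to 53.6 in Abi3 WT with a median of 23.8, and 48.2, 24.2, 17.9, 18.1 and 20.5 in Abi3 KO, all inside the Abi3 WT range. With raw counts of 5 to 52, its log2 fold change of -0.05 had the widest interval of the 10 (SE 0.440, interval -0.91 to 0.81, no adjusted p, exact permutation p = 0.909).

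The intervals give the sizes of change that remain possible in these data. All 10 intervals lay inside a 2-fold change in either direction, with bounds from 0.531-fold to 1.97-fold, and 6 lay inside 1.5-fold. With 1 animal left out, 8 to 10 of the intervals stayed inside 2-fold, those of Gpr17 and Enpp6 being the exceptions, with bounds as far as 2.19-fold and 0.402-fold for Enpp6. The replicate block left 8 inside, again without these genes. With reads outside genes as a covariate 5 stayed inside, and the bounds reached 0.311-fold and 2.95-fold. Changes inside these intervals could not be told from none with 6 and 5 animals at this depth. A p above the threshold does not show that the genotypes were equal. The plot of log2 fold changes gives the estimates with each animal left out in turn.

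**Figure D2:**
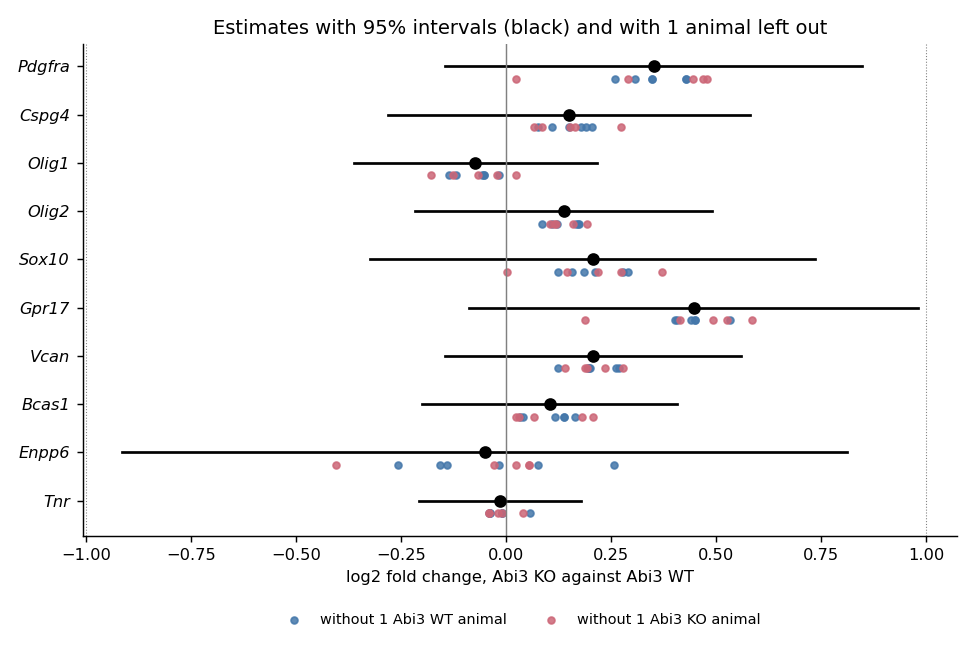
Log2 fold changes of the 10 lineage genes, Abi3 KO against Abi3 WT (horizontal axis), with 95% intervals (black) and the estimates with 1 animal left out (blue, an Abi3 WT animal; red, an Abi3 KO animal). Every interval includes 0 and stays inside the dotted lines at a 2-fold change, and the estimates for Pdgfra and Gpr17 fall to 0.02 and 0.19 without 1 Abi3 KO animal each.

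The spread between animals of 1 genotype was set beside the counting error of each gene. Counting error is a floor that leaves out PCR copies and falls as counts rise, so the ratio of the 2 does not rank genes by how much animals differ. For Olig2 the coefficient of variation within genotype was 11.99%, near the 11.6% that counting of reads alone gives. It was 40.7% for Pdgfra, where counting gives 9.94%, 21.5% for Bcas1, where counting gives 5.38%, and 58.6% for Enpp6, where counting gives 19.5%. Olig1 (18.7% against 6.17%) and Tnr (11.2% against 4.27%) lay above the floor, as did Vcan (16.2% against 10.4%) and Cspg4 (20.6% against 12.8%). For the Abi3 KO animals alone the coefficient was 49.8% for Pdgfra, 41.5% for Gpr17 and 38.5% for Sox10, and for the Abi3 WT animals it was 23.5%, 16.3% and 22.6%. It was also higher in Abi3 KO for Cspg4, Olig1 and Bcas1. It was lower in Abi3 KO for Olig2 (10.5% against 13.3%), Vcan (14.1% against 18.1%), Enpp6 (49.7% against 64.4%) and Tnr (9.52% against 12.4%). Whether the genotypes differed in this spread was not tested. The median SE of the log2 fold change was 0.200 for the 10 genes and 0.196 for genes of like mean count, so the lineage genes were measured about as well as others.

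**Figure D3:**
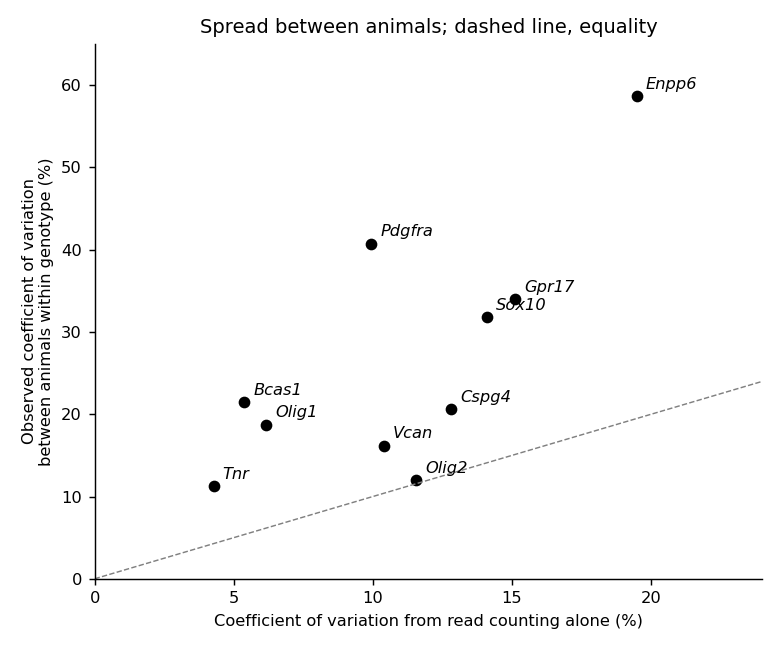
Observed coefficient of variation between animals within genotype (vertical axis, %) against the coefficient expected from read counting alone (horizontal axis, %) for the 10 lineage genes, 1 point per gene; the dashed line marks equality. Olig2 sits on the line (11.99% and 11.6%), and the observed value is 4.10 times that of counting for Pdgfra and 4.00 times for Bcas1.

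Genes of 1 cell type could be high or low together from animal to animal. Correlations between the 10 genes were computed over the 11 animals on log2(normalized count + 1) after the genotype means were removed, with permutation tests (100000 resamples) adjusted over 45 pairs. No pair passed, with Pearson's r or with Spearman's rho. Of the 45 coefficients r, 22 were positive and the median was -0.0300.

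The highest coefficient was that of Olig1 and Bcas1 (r = 0.831, permutation p = 0.0025, adjusted p = 0.112), with rho = 0.545 (permutation p = 0.0860, adjusted p = 0.602). It was 0.749 without the 2 animals farthest from the median, and 0.790 to 0.890 with each animal left out. The 4 animals with Bcas1 counts under 300, Abi3 WT replicates 2 and 4 and Abi3 KO replicates 1 and 2, were also the 4 lowest in Olig1.

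Pdgfra and Cspg4, both precursor surface genes, had r = 0.603 (permutation p = 0.0487, adjusted p = 0.548) and rho = 0.618 (permutation p = 0.0465, adjusted p = 0.602), and r was 0.408 without the 2 animals farthest from the median. Vcan and Tnr, also made by precursors, had a negative r of -0.619 (permutation p = 0.0434, adjusted p = 0.548). For Sox10 and Tnr r was 0.680 (permutation p = 0.0217, adjusted p = 0.487). Olig1 and Olig2, neighbours on chromosome 16, had r = -0.160 (permutation p = 0.631, adjusted p = 0.966) and rho = -0.0455. The plot of pairs shows Olig1 with Bcas1, Olig1 with Olig2, and Cspg4 with Pdgfra by animal.

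**Figure D4:**
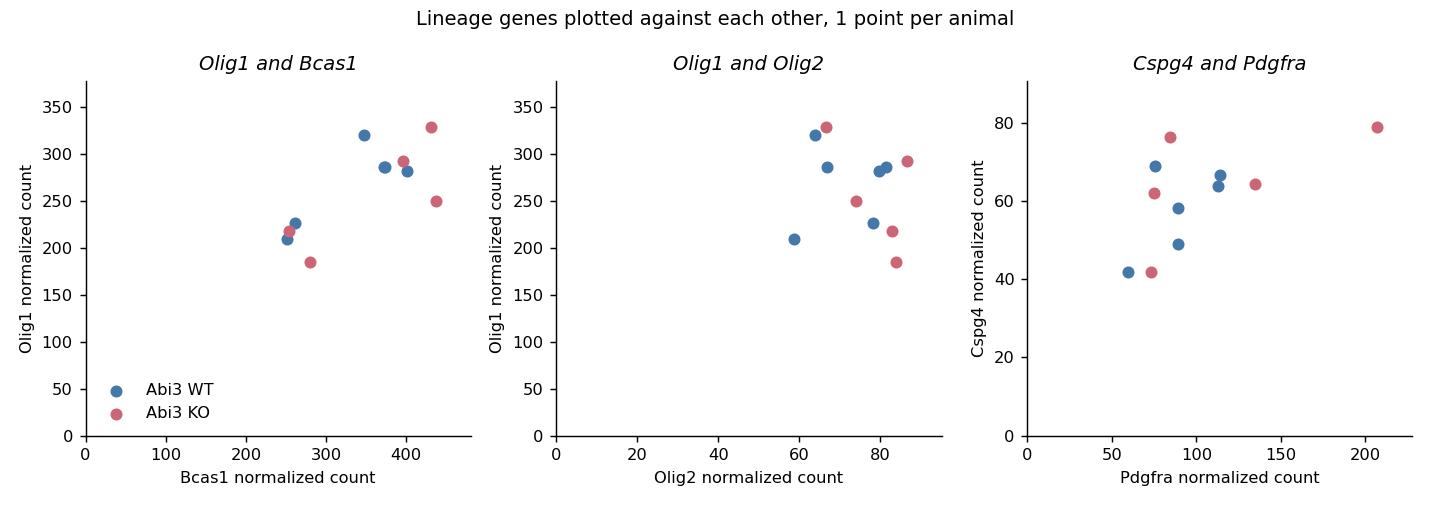
Normalized counts of Olig1 against Bcas1 (left), Olig1 against Olig2 (middle) and Cspg4 against Pdgfra (right), 1 point per animal, with 6 Abi3 WT animals in blue and 5 Abi3 KO animals in red. In the left panel 4 animals lie low on both axes and the other 7 lie high, in the middle panel no trend is seen (r = -0.160), and in the right panel Abi3 KO replicate 2 stands far to the right at a Pdgfra count of 207.

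The wider lineage was read from lists of other genes. Over all genes tested, 8.58% had an unadjusted p below 0.05, and for 1.04% the genotypes did not overlap. Of 16 other genes enriched in precursors, none passed the threshold, the median log2 fold change was 0.06, and 1 had an unadjusted p below 0.05. This was Cacng4, an AMPA receptor auxiliary subunit, with 159 ± 21.9 (SD, n = 6) normalized counts in Abi3 WT and 125 ± 13.8 (SD, n = 5) in Abi3 KO (log2 fold change -0.35, SE 0.145, DESeq2 adjusted p = 0.255). Lnx1 had a log2 fold change of 0.58 without an adjusted p. Gria3, an AMPA receptor subunit that neurons also make, had the highest mean count of the list and a log2 fold change of 0.10 (adjusted p = 0.720).

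None of 20 further transcription factors and chromatin regulators passed, and none had an unadjusted p below 0.05. Id2, which holds precursors in an undifferentiated state, had a log2 fold change of 0.16 (DESeq2 adjusted p = 0.502). Hdac1, a histone deacetylase, had -0.53 with no adjusted p.

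None of 12 premyelinating genes passed and 1 had an unadjusted p below 0.05, with a median log2 fold change of -0.06. Frmd4a had a log2 fold change of -0.28 (DESeq2 adjusted p = 0.361), and Nfasc, which encodes the adhesion molecule neurofascin and had the highest mean count of this list, had -0.08 (adjusted p = 0.726). Tmem163, a zinc transporter gene, was higher in every Abi3 KO animal than in any Abi3 WT animal (35.2 ± 5.52, SD, n = 6, and 48.0 ± 9.82, SD, n = 5, normalized counts), with a log2 fold change of 0.44, an unadjusted DESeq2 p of 0.0713 and no adjusted p.

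Among growth signals, 15 of 17 listed genes were tested and none passed, with 3 at an unadjusted p below 0.05. Pdgfa, the ligand of PDGFRA, had counts of 287 ± 36.1 (SD, n = 6) in Abi3 WT and 273 ± 24.2 (SD, n = 5) in Abi3 KO (log2 fold change -0.07, DESeq2 adjusted p = 0.877). Pdgfa is named outside the rule for these lists, as the ligand of a lineage gene. Fgfr3 had 261 ± 45.3 (SD, n = 6) and 195 ± 18.0 (SD, n = 5) (log2 fold change -0.42, adjusted p = 0.0871), and Fgfr2 had 75.9 ± 11.97 (SD, n = 6) and 106 ± 7.64 (SD, n = 5), without overlap (log2 fold change 0.49, adjusted p = 0.126). Both encode receptors for fibroblast growth factors, the first made mainly by astrocytes and the second by astrocytes and oligodendrocytes. Ntrk2, the gene of the neurotrophin receptor TrkB and the most abundant of the list, had -0.01 (adjusted p = 0.974).

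Among Notch and other inhibitory signals, 13 of 15 listed genes were tested, none passed and 3 had an unadjusted p below 0.05. Notch1, whose activation holds precursors undifferentiated, had counts of 107.5 ± 32.3 (SD, n = 6) in Abi3 WT and 70.8 ± 15.1 (SD, n = 5) in Abi3 KO (log2 fold change -0.61, DESeq2 adjusted p = 0.139). Rtn4, which encodes the myelin inhibitor Nogo and is also made by neurons, had a log2 fold change of 0.18 without overlap of the genotypes (adjusted p = 0.102).

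Among the matrix genes that go with Vcan, Cspg4 and Tnr, 15 of 16 were tested and 4 had an unadjusted p below 0.05. The 1 that passed was Ptprs, which encodes a receptor for chondroitin sulfate proteoglycans. It was lower in every Abi3 KO animal (608 ± 37.7 normalized counts, SD, n = 5) than in any Abi3 WT animal (722 ± 31.2, SD, n = 6), with a fall past the threshold (log2 fold change -0.25, SE 0.0718, DESeq2 adjusted p = 0.0459), against 0.199% of all genes called lower. The Ptprs call was lost in edgeR's quasi-likelihood test (adjusted p = 0.336), in limma (0.299), with the replicate block (0.248), with independent filtering off (0.110), without a filter on low counts (0.0560), with reads outside genes as a covariate (1.00), and without Abi3 KO replicate 1, 2 or 3 or Abi3 WT replicate 1, 3, 5 or 6 (adjusted p 0.0564 to 0.170). In these settings its log2 fold change stayed at -0.25 to -0.22. Bcan, which encodes brevican, had a log2 fold change of -0.32 (adjusted p = 0.114), and Cntn1, the most abundant gene of this list, had 0.15 (adjusted p = 0.335).

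Of 17 genes of mature myelin, 2 rose, Cldn11 and Trf, against 0.34% of all genes called higher, and 16 of 17 log2 fold changes were above 0 with a median of 0.30. An unadjusted p below 0.05 was found for 5 of the 17. Cldn11, a tight junction protein of the myelin sheath, rose from 242 ± 48.1 (SD, n = 6) in Abi3 WT to 346 ± 29.1 (SD, n = 5) in Abi3 KO (log2 fold change 0.53, SE 0.130, DESeq2 adjusted p = 0.0106). Trf, transferrin, which oligodendrocytes make in quantity, had 531 ± 44.3 (SD, n = 6) and 699 ± 143 (SD, n = 5) (log2 fold change 0.40, SE 0.116, adjusted p = 0.0477). In edgeR the adjusted p was 0.0403 for Cldn11 and 0.132 for Trf, in limma 0.0586 and 0.170, and with reads outside genes as a covariate 1.00 for both. The log2 fold changes of Cldn11 and Trf were 0.52 and 0.39 in edgeR, 0.54 and 0.39 in limma, and 0.61 and 0.53 with the covariate. Trf also did not pass with TMM factors (adjusted p = 0.0525), with independent filtering off (0.114) or with the replicate block (0.105). Without Abi3 KO replicate 3, 4 or 5 or Abi3 WT replicate 4, 5 or 6 Trf did not pass (adjusted p 0.0514 to 0.145), and without Abi3 WT replicate 2 Cldn11 had no adjusted p. Mbp, the most abundant of the list, had a log2 fold change of 0.03 (adjusted p = 0.939). The median of the 10 lineage genes was 0.14 (0.04 with the covariate and 0.09 without Abi3 KO replicate 2). That of the mature myelin genes was 0.30 (0.51 with the covariate and 0.33 without Abi3 KO replicate 2). The difference between the lists was not tested.

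**Figure D5:**
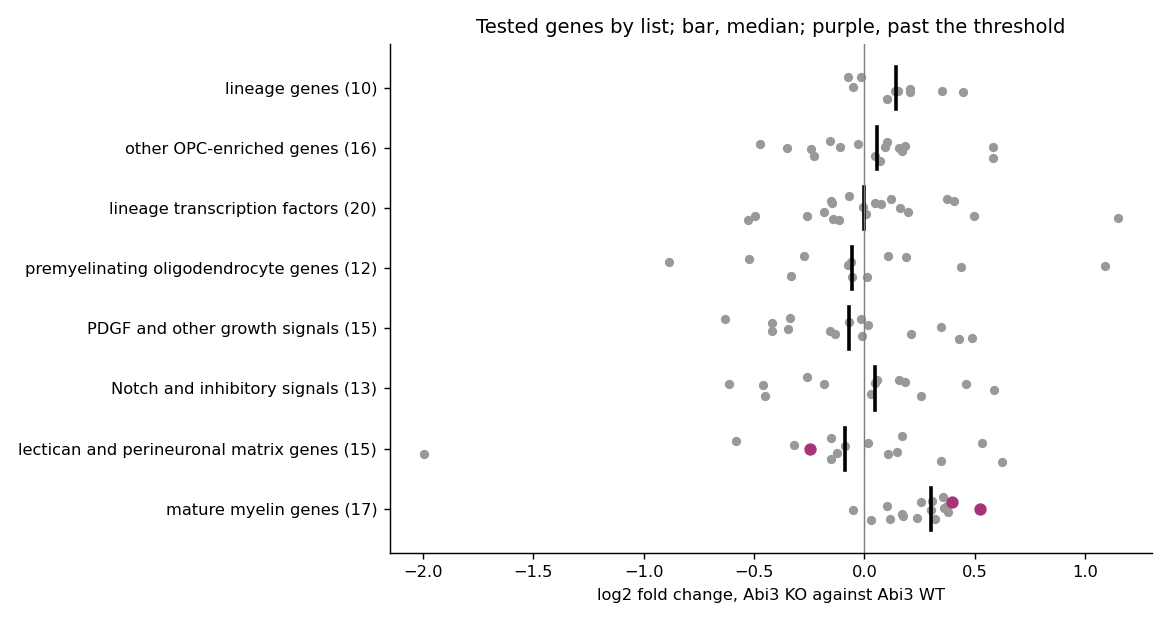
Log2 fold changes, Abi3 KO against Abi3 WT (horizontal axis), of the tested genes of each list, with the number of genes in brackets; each point is 1 gene, the black bar is the median, and purple points passed the threshold. None of the 10 lineage genes is purple, Ptprs is the 1 purple matrix gene, and Cldn11 and Trf are the 2 purple myelin genes, in a list whose median is 0.30.

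Markers of other cells were read from 8 genes each. Microglial markers summed to 1836 to 2649 normalized counts in Abi3 WT and 2129 to 2863 in Abi3 KO, astrocyte markers to 13840 to 16194 and 14094 to 15637, and endothelial markers to 669 to 921 and 815 to 885. In each of these lists, and among neuronal markers, 0 genes passed the threshold and no marker was at 0. The 10 lineage genes together summed to 1367 to 1809 in Abi3 WT and 1529 to 1784 in Abi3 KO. Between the lineage genes and the measures of library size and reads outside genes, 20 correlations over 11 animals were computed with genotype means removed, and the lowest adjusted permutation p of r was 0.704.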

How the data were processed

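Cortical QuantSeq libraries of 11 mice were analysed. The authors trimmed reads, aligned them with STAR (version 2.7.3a) to Ensembl GRCm39 and counted uniquely aligned reads per gene by strand with HTSeq (version 0.9.1); the deposited values are raw counts without normalization, with no step that collapses PCR copies stated. Gene names and positions came from GENCODE M39 (GRCm39), which matched 52610 of 53700 identifiers (98.0%).

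DESeq2 (version 1.42.0, R 4.3.3) was fitted with 1 term, genotype, following the study's methods. All genes with a total count of at least 10 were fitted, those with a base mean of at least 1.5 were kept (17626), and the threshold was 0.05 for p adjusted by Benjamini-Hochberg, with independent filtering aimed at that value. Genes under the filter's mean count of 70.4 have no adjusted p and count as not past it. Intervals are the estimate ± 1.96 SE. For single genes an exact permutation test (two-sided) was run over the 462 splits of the animals, unadjusted, whose smallest p is 0.00216 (scipy 1.17.1).

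Alternatives were edgeR (version 4.0.16), limma voom with sample weights (version 3.58.1), TMM factors, other filters, a replicate block, reads outside genes as a covariate, and each animal left out; for single genes, correlations and library measures the last was chosen after seeing the data. The lineage genes and lists were chosen with earlier results of these data known. Named genes are the 10 lineage genes and, in each list, those past the threshold, otherwise the 2 with the smallest p and the 1 with the highest mean. A few genes covered by this rule are not reported here. Replicates are separate animals. Same-numbered animals across genotypes had correlations of -0.0198 to 0.123 (mean 0.0399), where other pairs across genotypes had a mean of -0.00798. So few pairs cannot show whether the numbers mark a shared batch, and the main fit did not use them as pairs. No 2 libraries of the same genotype were alike within sampling noise (chi-square per degree of freedom 4.33 to 8.22). Pairs across genotypes were not examined in this way.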

Additional observations from a re-analysis of the deposited data

Results flagged for a closer look

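Within a genotype, 1 animal stood apart from the rest by Dixon's criterion for 3 of the 20 gene and genotype groups examined, where chance gives about 1. Abi3 WT replicate 1 had a Gpr17 normalized count of 49.1, with the next animal at 38.1. Abi3 KO replicate 1 had an Enpp6 count of 48.2, with the next at 24.2. Abi3 WT replicate 5 had a Tnr count of 679, with the next at 558.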

How the results depend on the processing

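Under no alternative did a lineage gene pass the threshold. Over 190 combinations of gene and setting, 177 kept the direction, 13 had the other sign, 76 had no adjusted p, and the lowest adjusted p was 0.453. Over all genes, 95 calls became 37 in edgeR (23 of them shared), 20 in limma (17 shared), 57 with independent filtering off (46 shared) and 3 with reads outside genes as a covariate (3 shared), and 46 to 120 with 1 animal left out. The calls in the wider lists, 3, became 1 in edgeR, 0 in limma, 1 with filtering off, 0 with the covariate, and 1 to 3 with 1 animal left out. The last were not always the same genes. Bcan passed without Abi3 WT replicate 2 or 4 or Abi3 KO replicate 3. Fgfr3 passed without Abi3 WT replicate 3, and Rtn4 without Abi3 KO replicate 4. The replicate block left 33 calls over all genes (28 shared), 1 in the wider lists and 0 among the lineage genes. The covariate, which differs between genotypes and raised the errors, turned the log2 fold changes of Olig1 to 0.16, Olig2 to -0.0853, Sox10 to -0.36 and Gpr17 to -0.0488, and limma turned that of Enpp6 to 0.18; the cause was not tested. With 1 animal left out, log2 fold changes ranged from -0.18 to 0.0235 for Olig1, -0.41 to 0.26 for Enpp6 and -0.0403 to 0.0572 for Tnr, and without a change of sign from 0.02 to 0.21 for Bcas1, 0.07 to 0.27 for Cspg4, 0.02 to 0.48 for Pdgfra, 0.0013 to 0.37 for Sox10, 0.19 to 0.59 for Gpr17, 0.09 to 0.19 for Olig2 and 0.12 to 0.28 for Vcan. The count of lineage genes with an exact permutation p below 0.05, 0 with all animals, was 0 to 1, the 1 being Gpr17 without Abi3 KO replicate 4. Correlated pairs past the threshold stayed at 0 with TMM factors and without each animal (0 to 0). The count was also 0 in Abi3 WT animals alone, where so few animals give too few orderings for a single pair to pass. The difference in reads outside genes, Abi3 KO minus Abi3 WT, -11.9 per 100 reads in genes, was -14.0 to -10.8 without 1 animal. Raw counts of 5 to 52 limit what Enpp6 can show.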

Other observations

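Ratios of counts within an animal were computed for 6 pairs of lineage genes. The ratio of Gpr17 to Pdgfra was 0.441 ± 0.135 (SD, n = 6) in Abi3 WT and 0.547 ± 0.345 (SD, n = 5) in Abi3 KO. The ratio of Bcas1 to Pdgfra was 3.87 ± 1.22 (SD, n = 6) and 3.75 ± 1.72 (SD, n = 5), with its lowest value, 1.22, in Abi3 KO replicate 2, the animal with the highest Pdgfra count. Bcas1 to Olig2 was 4.70 ± 0.834 (SD, n = 6) and 4.67 ± 1.51 (SD, n = 5). Olig1 to Bcas1 varied least of the 6 ratios computed, 0.811 ± 0.0802 (SD, n = 6) and 0.720 ± 0.108 (SD, n = 5). These ratios were not tested, and a ratio across genes is no measure of their relative amounts of protein or cells.

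Genes whose counts followed a lineage gene most closely between animals were sought among 7779 genes whose normalized count averaged 50 or more, by Pearson's r over 11 animals with genotype means removed. For Bcas1 they were Plekhb1 (r = 0.952), Slc2a13 (0.937), Ank3 (0.933), Sh3gl1 (0.924) and Chd6 (0.921). The myelin genes Mbp and Mobp ranked 18 and 19 for Bcas1, with r of 0.864 and 0.861, whereas Mog, also a myelin gene, ranked 3935 with r = -0.00889. For Pdgfra the 4 closest were 4931406C07Rik (r = 0.944), Dnajb9 (0.921), Cald1 (0.894) and Ndufa13 (0.887), and its r with Mbp was -0.0522. For Sox10 they were Lrfn5 (r = 0.914), Cnpy3 (0.897), Sclt1 (0.893), 5031439G07Rik (0.891) and Pdcd11 (0.880). The coefficients were picked as the highest of 7779 and are given as a description, and both genes of each share their libraries and depth.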
